A study of Mus musculus with 27 samples.

Results

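The exchange of progenitor for neuronal subunits of the BAF complex was followed through 10 genes in the brains of mouse fetuses, over 3 days and 3 strains. The genes were the rows of the gene read count table whose symbol is one of the 10 subunits, out of 55416 rows in all. The progenitor set holds 4 genes, Smarca4, Actl6a, Phf10 and Ss18, and the neuronal set holds 6 genes, Smarca2, Actl6b, Dpf1, Dpf3, Ss18l1 and Smarcd3. RNA was taken from whole brains of female fetuses at d12, d15 and d17, where d is the gestational day and the day of the vaginal plug is day 1, and 3 libraries stood for each strain and day, 27 in all. The strains are AKR/J and C57BL/6J, both inbred, and Cav1-null, which is B6.Cg-Cav1tm1Mls/J, a congenic line on the C57BL/6J background in which caveolin 1 is disrupted in the germline, and thus in every tissue of fetus and mother. No group was treated. The labels do not say which fetuses shared a litter, so that p-values measure the spread between libraries of unknown litters. The whole brain mixes neurons, progenitors, glia and vessels, so that fewer cells of a type and less RNA per cell cannot be told apart. All 8 neuron markers were above 1 CPM (read counts scaled to a common library total) in every group.

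BAF (mammalian SWI/SNF) is a complex that uses ATP to slide or eject nucleosomes, and its composition differs between cell types. As neural progenitors leave the cell cycle, the actin-like subunit ACTL6A gives way to ACTL6B, the PHD finger subunit PHF10 to DPF1 and DPF3, and SS18 to SS18L1 (CREST), and these exchanges are needed for dendrite growth. The ATPases SMARCA4 (BRG1) and SMARCA2 (BRM) are both found in neural BAF complexes, and SMARCD3 is 1 of 3 related SMARCD subunits. In neurons the microRNAs miR-9-3p and miR-124 act on the Actl6a transcript, and both microRNAs are held down outside neurons by the repressor REST.

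2 sequences are shown for the actin-like pair, because they carry the largest net changes over the days among the members, Actl6b in AKR/J and Actl6a in the other strains. The first is the mature miR-9-3p of the RefSeq table, with its seed (bases 2 to 8) in capitals, above the stretch of the Actl6a 3′ UTR that holds its match, in capitals, on the plus strand of chromosome 3 from 32780770 to 32780799 (GRCm39).
mmu-miR-9-3p: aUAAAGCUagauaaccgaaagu
Actl6a 3′ UTR: ccgtcacctcaacgtctgtAGCTTTAgtac
The 3′ UTR of Actl6a has 377 bases and 1 match to the 7 bases AGCTTTA. Of 15693 genes with a 3′ UTR at least as long, 2.887% held a match in their first 377 bases. Among the 10 members, Smarca2 also held 1 match, in 952 bases, and the other 8 held 0. The second is the Actl6b promoter, from 250 bases before to 50 after the start, which was searched on both strands for CAGCACC and GGACAG, the left and right parts of the element bound by REST.
Actl6b promoter: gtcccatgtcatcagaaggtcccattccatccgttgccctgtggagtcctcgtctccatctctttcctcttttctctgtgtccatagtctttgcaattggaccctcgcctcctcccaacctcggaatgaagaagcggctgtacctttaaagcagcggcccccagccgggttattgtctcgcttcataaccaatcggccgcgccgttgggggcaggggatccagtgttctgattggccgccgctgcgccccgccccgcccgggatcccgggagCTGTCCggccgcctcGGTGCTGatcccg
This stretch lies on the plus strand of chromosome 5, from 137553296 to 137553595 (GRCm38.p6, RefSeq), and the capitals mark both parts, which match on the opposite strand, GGACAG at bases 273 to 278 and CAGCACC at bases 288 to 294, with 9 bases between them. Both were found in 2.02% of the promoters of 27025 genes, CAGCACC with or without the other in 8.141% and GGACAG likewise in 24.688%. The table holds promoters of 9 of the 10 members, and Actl6b was the only one of the 9 with either string. A match is a string of letters and was not tested for binding, and mature microRNAs were not measured in these libraries.

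Members were counted as called when edgeR's quasi-likelihood test gave an adjusted p under 0.05 over all genes tested, and all 10 members passed the filter on low counts in every comparison. Between d12 and d17 the sets moved apart, most widely in AKR/J. In AKR/J, 6 of 6 neuronal members rose and 2 of 4 progenitor members fell, where 23.1% of 20030 genes were called higher and 22.7% lower. In C57BL/6J, 1 of 6 neuronal members rose and 2 of 4 progenitor members fell, against 14.5% and 11.7% of 19762 genes. In Cav1-null mice, 3 of 6 neuronal members rose and 4 of 4 progenitor members fell, against 20.8% and 23.3% of 20189 genes. In AKR/J the median log2 fold change was 1.14 for the neuronal and -0.44 for the progenitor set, in C57BL/6J it was 0.41 and -0.88, and for Cav1-null mice it was 0.23 and -0.72. The median of all genes lay between -0.04 and -0.01 in these comparisons.

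In the early phase, d12 to d15, 6 of 6 neuronal members were called higher in AKR/J, against 14.8% of all genes. Of these 6, 4 stayed called once the trend of expression with the GC content and length of genes was removed from each library, and the calls of Smarca2 and Dpf1 were lost without replicate 3 of d12 or replicate 1 or 3 of d15. In the same phase 1 of 6 was called higher in C57BL/6J, against 7.08% of all genes, and 3 of 6 in Cav1-null mice, against 11.6%. Of these 3, Actl6b and Smarcd3 were not called with the trend removed (adjusted p = 0.11 and 0.0501). With 1 library left out, Actl6b was called only without replicate 2 or 3 of d12. Smarcd3 was lost without replicate 1 or 3 of d15. The count of 1 in C57BL/6J rests on the test, since 5 of the 6 had an unadjusted p under 0.05, 3 were called by DESeq2 and 5 in 1 model of all 27 libraries, and the difference between AKR/J and C57BL/6J in this change was called by edgeR in 0 of 6, with 2 at an unadjusted p under 0.05 and 1 by DESeq2. In the late phase, d15 to d17, the progenitor set supplied most calls. It had 3 of 4 members called lower in AKR/J, against 10.4% of all genes, 2 of 4 in C57BL/6J, against 5.58%, and 2 of 4 in Cav1-null mice, against 12.8%. The phases share the d15 libraries, and the net change shares libraries with both. In C57BL/6J, 2 members were called in either direction in the early phase, against 14.9% of all genes, and the count was 0 without replicate 1 of d12 or any library of d15, 4 without replicate 3 of d12 and 6 without replicate 2 of d12. In AKR/J it was 7, against 28.9% of all genes, and 2 without replicate 3 of d15.

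**Figure D1:**
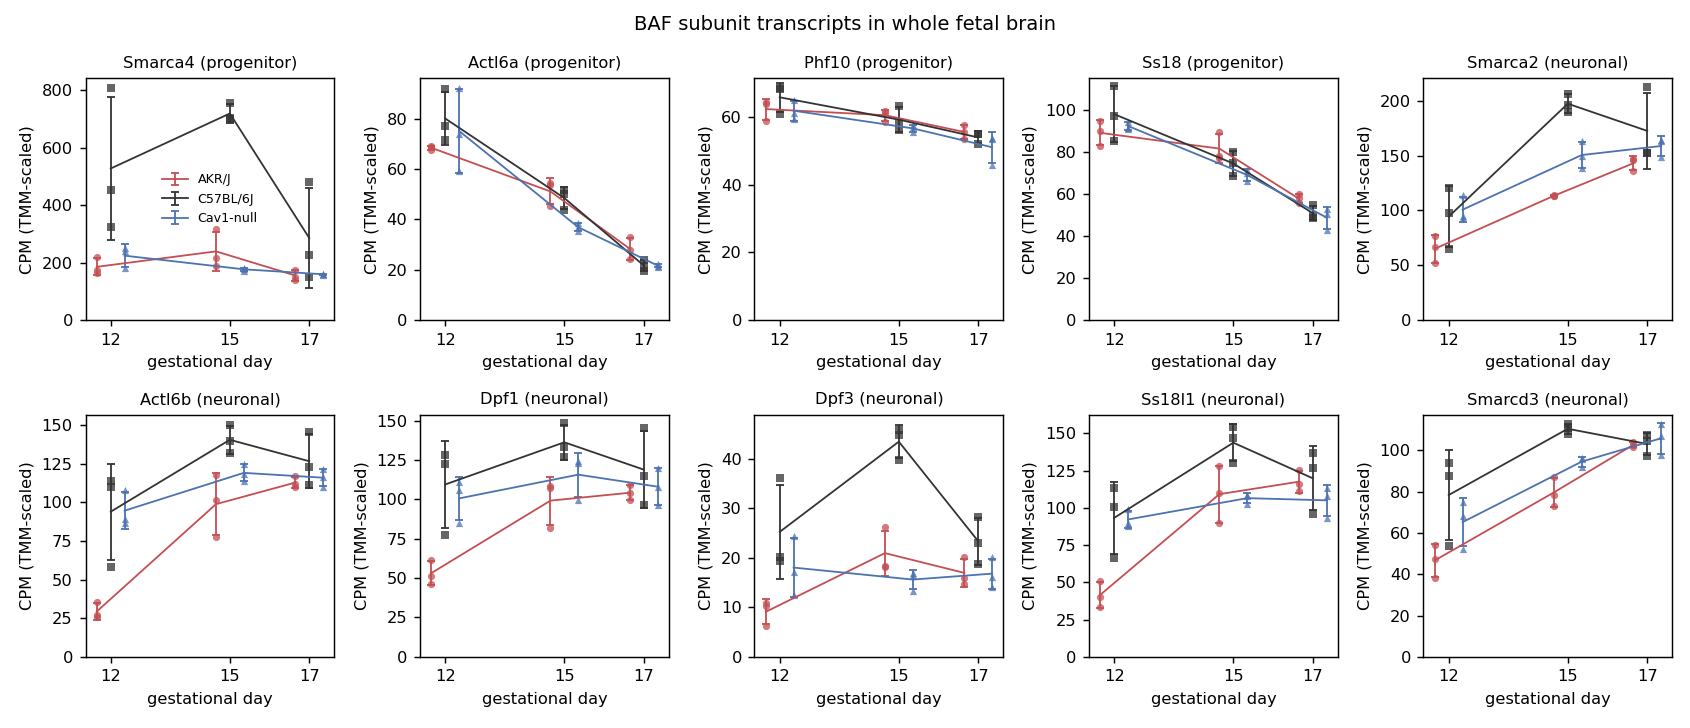
TMM-scaled CPM (vertical axes from 0) of the 10 BAF subunit genes on gestational days 12, 15 and 17 in AKR/J (red circles), C57BL/6J (black squares) and Cav1-null (blue triangles), with each library as a point and the mean ± SD of 3 libraries as a line. Actl6a and Ss18 are lower on d17 than on d12 in each strain, while Actl6b of AKR/J goes from 25.5 to 35.6 CPM on d12 to 110 to 117 CPM on d17.

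Actl6a, the progenitor actin-like subunit, fell in all 3 strains and in both phases. It lies on chromosome 3 from 32760447 to 32781128 (GRCm39). Expression is given as CPM, with library totals adjusted by TMM factors, as each library or as mean ± SD of 3 libraries. In AKR/J, Actl6a was at 68.8, 69.1 and 67.5 CPM on d12, at 53.8, 45.2 and 54.4 on d15, and at 32.8, 28.04 and 24.1 on d17. In C57BL/6J, the values were 71.4, 76.9 and 91.9 on d12, 50.2, 51.6 and 43.7 on d15, and 23.99, 19.4 and 21.7 on d17. In Cav1-null mice, the values were 74.0, 92.4 and 59.1 on d12, 36.8, 38.6 and 35.3 on d15, and 22.3, 21.1 and 21.5 on d17. In each strain the libraries of every later day lay below all those of the earlier day. The net log2 fold change was -1.27 ± 0.15 (SE) in AKR/J (adjusted p = 0.00037), -1.86 ± 0.19 in C57BL/6J (adjusted p = 0.00095) and -1.81 ± 0.14 in Cav1-null mice (adjusted p = 4.43e-05).

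The net fall of Actl6a passed the test under every alternative and without each of the libraries in turn. The early fall in AKR/J, -0.47 ± 0.15 (adjusted p = 0.0432), did not: with 1 library left out it held only without replicate 2 of d12, it was lost with no filter on low counts, with the replicate number as a block and with the GC and length trend of the genes removed, and when libraries were scaled by their size alone its value was -0.03 while the median of all genes moved by 0.44. In C57BL/6J the early fall, -0.78 ± 0.13 (adjusted p = 0.0209), held only without replicate 2 or 3 of d12 and gave -0.84 to -0.68 where it was lost. It was also lost with the replicate block (adjusted p = 0.0691). The late fall was lost without replicate 3 of d17, at -1.12.

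Actl6b, the neuron-specific partner, is on chromosome 5 from 137551767 to 137567844 (GRCm39). In AKR/J it was at 27.1, 35.6 and 25.5 CPM on d12, at 101, 77.7 and 118 on d15, and at 110, 112 and 117 on d17. All 3 libraries of d12 lay below every other library of the series. The early log2 fold change was 1.70 ± 0.21 (adjusted p = 0.00184) and the net change 1.94 ± 0.17 (adjusted p = 7.45e-05), the largest of any member. C57BL/6J stood at 110, 114 and 58.1 CPM on d12, at 132, 150 and 140 on d15, and at 146, 111 and 123 on d17, and its net change of 0.47 ± 0.27 was not called (adjusted p = 0.234). Cav1-null mice stood at 86.5, 108 and 89.4 CPM on d12, at 119, 125 and 114 on d15, and at 110, 122 and 116 on d17. Their net change, 0.28 ± 0.10, was called with edgeR's adjusted p at 0.0479, and with 1 library left out it was called only without replicate 2 of d12, and it was not called with a GC and length trend removed from each library (adjusted p = 0.131), in 1 model of all 27 libraries (adjusted p = 0.254), with the replicate block (adjusted p = 0.059) or with no filter on low counts. The net and early rises of Actl6b in AKR/J passed the test under every alternative and without each of the 6 libraries.

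The ratio of both actin-like genes within a library does not depend on how libraries are scaled. Counted per length of the canonical transcript, there were 0.499, 0.652 and 0.478 Actl6b transcripts for each Actl6a transcript in AKR/J on d12, 2.38, 2.18 and 2.74 on d15, and 4.24, 5.04 and 6.15 on d17. The ratio thus passed 1 between d12 and d15. In C57BL/6J it was 1.95, 1.87 and 0.80 on d12, 3.33, 3.69 and 4.05 on d15, and 7.69, 7.26 and 7.20 on d17. In Cav1-null mice it was 1.48, 1.48 and 1.92 on d12, 4.08, 4.09 and 4.09 on d15, and 6.25, 7.30 and 6.84 on d17. Actl6b was thus the more abundant transcript on d12 in 5 of the 6 libraries of C57BL/6J and Cav1-null mice, and in 0 of 3 of AKR/J. The log2 ratio rose from d12 to d17 by 3.24, 2.37 and 2.07 in AKR/J, C57BL/6J and the Cav1-null line, with no overlap between neighbouring days in any strain. These ratios were not tested.

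**Figure D2:**
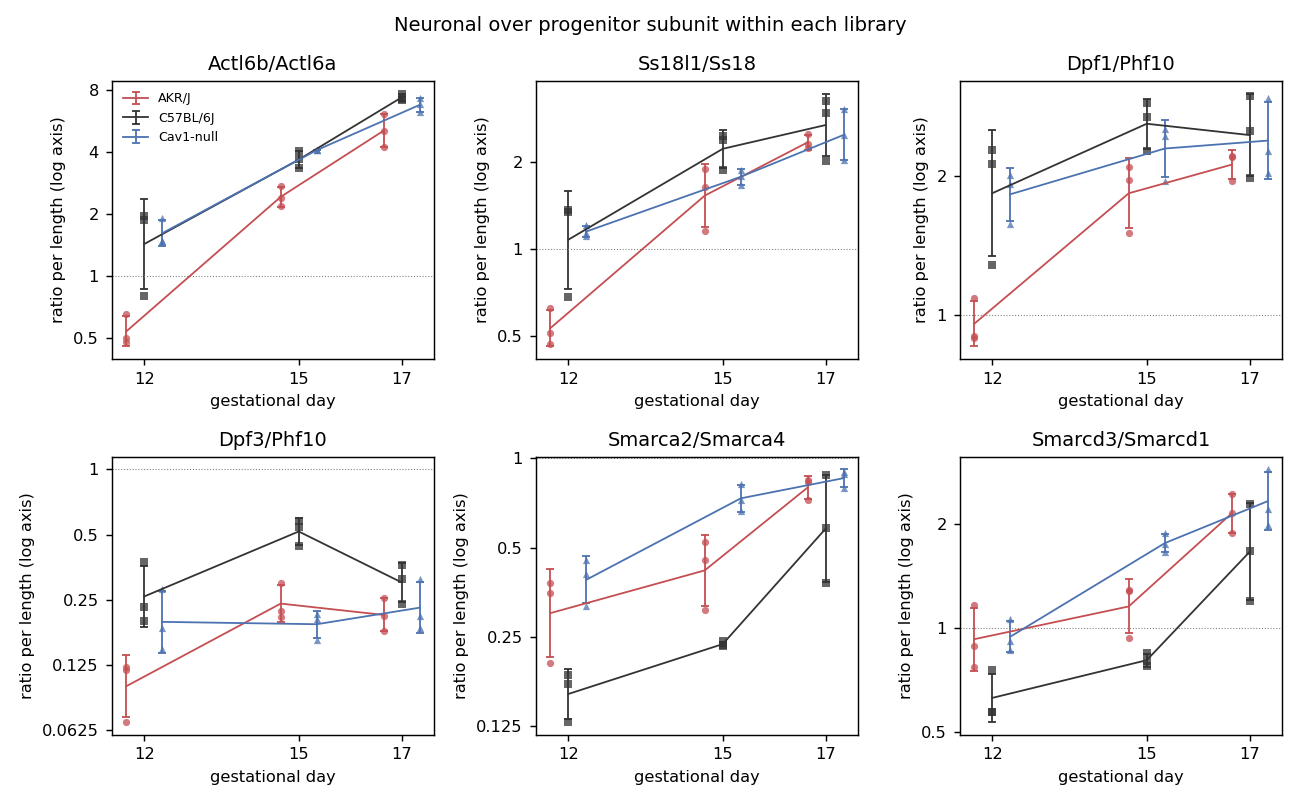
Ratio of a neuronal to a progenitor subunit in each of the 27 libraries, per length of the canonical transcript, on a log axis against gestational day, with the geometric mean ± SD of the log2 ratios of 3 libraries as a line and a dotted line at 1. The Actl6b/Actl6a ratio climbs from 0.478 to 0.652 on d12 to 4.24 to 6.15 on d17 in AKR/J and ends at 6.25 to 7.69 in the other strains. Dpf3/Phf10 and Smarca2/Smarca4 stay below 1 throughout.

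Ss18 and Ss18l1 encode related coactivator subunits of BAF. Ss18 fell in AKR/J from 83.0, 94.9 and 90.0 CPM on d12 to 58.1, 60.1 and 55.6 on d17, with a net log2 fold change of -0.62 ± 0.13 (adjusted p = 0.00562). In C57BL/6J it fell from 85.4, 97.4 and 112 CPM to 48.8, 54.7 and 49.5, a change of -0.92 ± 0.17 (adjusted p = 0.00684). In Cav1-null mice it fell from 91.2, 94.6 and 91.8 CPM to 53.1, 43.0 and 50.4, a change of -0.94 ± 0.09 (adjusted p = 0.000131). The groups of d12 and d17 did not overlap in any strain. Late values were -0.48 for AKR/J, -0.49 for C57BL/6J and -0.50 for the Cav1-null line, each called, that of C57BL/6J not without replicate 3 of d17 or any library of d15, with library size alone (adjusted p = 0.107) or with the replicate block (adjusted p = 0.0728), while the early value was called in Cav1-null mice, at -0.42 ± 0.08 (adjusted p = 0.0053), and not in AKR/J, at -0.17, or C57BL/6J, at -0.45. The early value in C57BL/6J was called by DESeq2 (adjusted p = 0.0362), in 1 model of all 27 libraries (adjusted p = 0.0136) and with the GC and length trend removed, at -0.61 (adjusted p = 0.0196), and that in AKR/J with the trend removed, at -0.46 (adjusted p = 0.0489). With library size alone, which moved the median of all genes by 0.36, the net value in AKR/J was -0.27 and not called.

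Ss18l1 rose in AKR/J. Its libraries were at 33.7, 51.1 and 40.0 CPM on d12, at 110, 89.6 and 128 on d15, and at 126, 116 and 111 on d17, so that d12 stood apart. The early change was 1.34 ± 0.21 (adjusted p = 0.00388) and the net change 1.498 ± 0.18 (adjusted p = 0.000384). The net values of 0.40 ± 0.24 in C57BL/6J (adjusted p = 0.259) and 0.18 ± 0.10 in Cav1-null mice (adjusted p = 0.184) were not called, and there the d12 libraries were already at 66.2 to 113 and 87.8 to 98.9 CPM. The Ss18l1/Ss18 ratio per length was 0.468 to 0.621 on d12 and 2.22 to 2.49 on d17 in AKR/J. It was 1.10 to 1.21 and 2.02 to 3.04 in Cav1-null mice, and 0.682 to 1.36 and 2.02 to 3.23 in C57BL/6J, with no overlap between d12 and d17.

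Phf10, the PHD finger subunit of the progenitor complex, had the narrowest range of group means among the members. They ran from 51.0 ± 4.60 CPM in Cav1-null mice on d17 to 65.8 ± 4.35 in C57BL/6J on d12. The only call was the net change in Cav1-null mice, from 59.4, 65.1 and 61.0 to 53.6, 45.8 and 53.8 CPM, with -0.29 ± 0.09 (adjusted p = 0.033). With 1 library left out it was called only without replicate 3 of d12, and it was lost under 6 of the 7 alternatives.

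The neuronal PHD finger genes differed from each other in level and in course. Dpf1 rose in AKR/J from 51.3, 61.7 and 46.5 CPM on d12 to 109, 81.7 and 107 on d15 and stood at 109, 104 and 99.6 on d17, a net change of 0.97 ± 0.16 (adjusted p = 0.00143) that was called without each library in turn. In C57BL/6J it held 77.7 to 128 CPM on d12 and 96.5 to 145 on d17, and in Cav1-null mice 85.0 to 111 and 96.3 to 120, with overlap in both strains and no call. Dpf3 was the least abundant member, at 2.38 to 11.4 RPKM (CPM per kilobase of the canonical transcript) as group means. It rose in AKR/J from 6.23, 10.8 and 10.2 CPM on d12 to 18.4, 18.2 and 26.2 on d15, with 1.16 ± 0.27 (adjusted p = 0.016), and the value of 0.98 without replicate 3 of d15 was not called. Its net change in AKR/J was 0.90 ± 0.25 (adjusted p = 0.0192), lost without replicate 1 or 2 of d17, at 0.77 and 0.96, and with the GC and length trend removed, at 0.66 (adjusted p = 0.0527). In C57BL/6J it stood at 39.6, 44.8 and 45.9 CPM on d15 and at 28.2, 18.8 and 23.0 on d17, a fall of 0.83 on the log2 scale with an SE of 0.17 (adjusted p = 0.0252), called only without replicate 1 or 2 of d17 when 1 library was left out. No change of Dpf3 was called in Cav1-null mice, with 12.4 to 24.4 CPM on d12 and 14.2 to 20.1 on d17. The Dpf1/Phf10 ratio per length in AKR/J was 0.892 to 1.09 on d12 and 1.95 to 2.21 on d17, and that of Dpf3 to Phf10 was 0.0683 to 0.123 and 0.181 to 0.256.

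Smarca2, the BRM ATPase, was called higher from d12 to d17 in all 3 strains. In AKR/J it went from 76.8, 51.6 and 66.6 CPM to 113, 114 and 113 on d15 and 147, 146 and 136 on d17, a net change of 1.14 ± 0.17 (adjusted p = 0.00116). In C57BL/6J it went from 97.4, 121 and 64.9 CPM to 190, 206 and 196 on d15 and 212, 153 and 153 on d17, with 0.91 ± 0.26 (adjusted p = 0.0356). In Cav1-null mice it went from 93.2, 114 and 94.8 CPM to 139, 149 and 163 on d15 and 163, 165 and 149 on d17, with 0.64 ± 0.10 (adjusted p = 0.000884). The call in C57BL/6J held without replicate 2 of d12 or replicate 2 of d17 and was lost without each of the other 4 libraries, at 0.69 to 0.98, and with the replicate block (adjusted p = 0.0691). Once a trend with the GC content and length of genes was removed from each library, the early value in AKR/J went from 0.76 to 0.14 and was not called, and the net value went to 0.64 and stayed called (adjusted p = 0.0287). With library size alone the early value was 1.25. Per length, Smarca2 stayed below Smarca4 in every library. The ratio was 0.203 to 0.379 on d12 and 0.720 to 0.843 on d17 in AKR/J. It was 0.129 to 0.185 and 0.3805 to 0.878 in C57BL/6J, and 0.318 to 0.455 and 0.792 to 0.8965 in Cav1-null mice.

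Smarcd3, the neuronal SMARCD subunit, rose from d12 to d17 in AKR/J, from 47.4, 54.4 and 38.3 to 102, 103 and 104 CPM, with 1.14 ± 0.16 (adjusted p = 0.00085). Its early change in AKR/J, 0.72 ± 0.18 (adjusted p = 0.0183), was called only without replicate 2 of d12 or replicate 2 of d15 when 1 library was left out, and was lost with the GC and length trend removed, at 0.49 (adjusted p = 0.0783). In Cav1-null mice it rose from 68.0, 75.3 and 52.5 to 107, 98.0 and 113 CPM, with 0.69 ± 0.12 (adjusted p = 0.00211). In C57BL/6J the libraries held 87.6, 94.1 and 53.5 CPM on d12 and 108, 97.4 and 105 on d17, without overlap, but the value of 0.43 ± 0.22 was not called (adjusted p = 0.19). Relative to Smarcd1, its relative in the complex, the ratio per length was 0.772 to 1.17 on d12 and 1.89 to 2.44 on d17 in AKR/J, 0.572 to 0.757 and 1.20 to 2.29 in C57BL/6J, and 0.864 to 1.06 and 1.98 to 2.88 in Cav1-null mice, with no overlap between d12 and d17 in any strain.

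**Figure D3:**
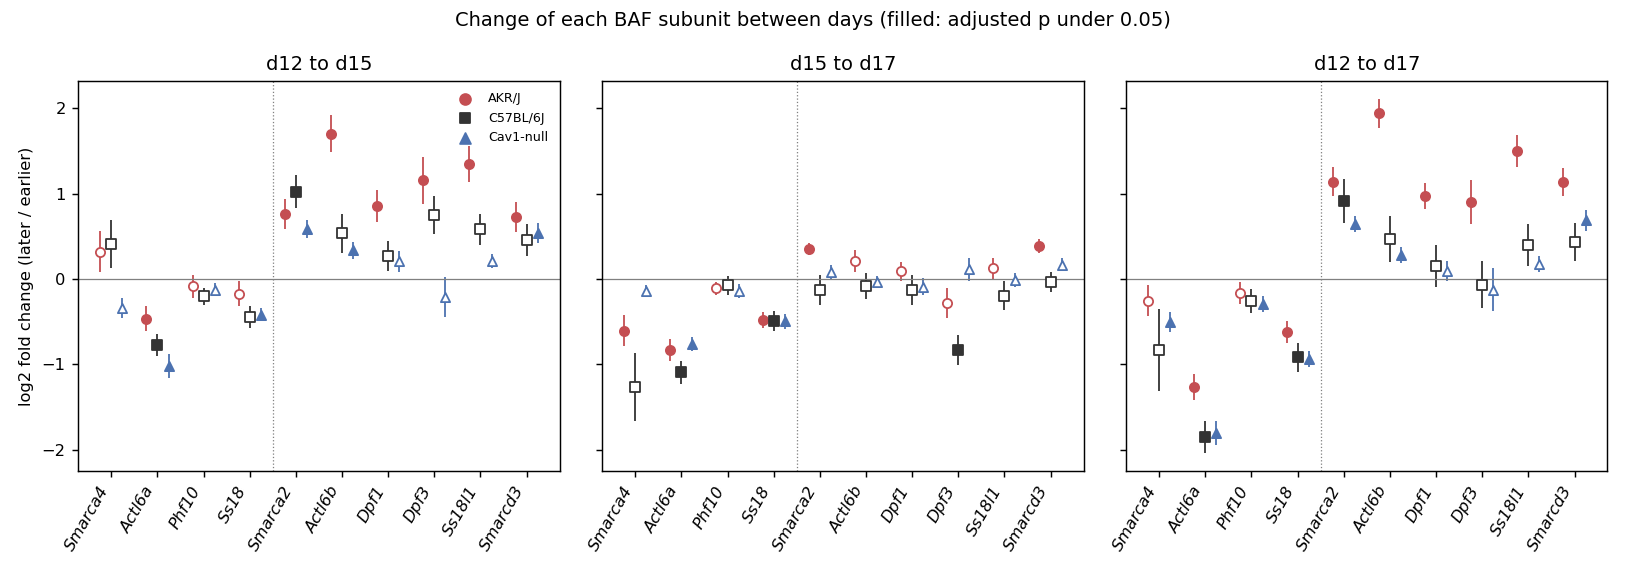
Log2 fold change (later over earlier day) of the 10 members in 3 comparisons of days, with ± SE of edgeR's fit over 6 libraries, progenitor members left and neuronal members right of the dotted line. Filled symbols are called at an adjusted p under 0.05. Actl6a is filled in every strain and panel, and the 6 neuronal members of AKR/J are filled in the early and net panels.

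In levels per length, the order of the subunits turned over in AKR/J. On d12 it opened with Actl6a at 34.0 ± 0.44 RPKM and Smarca4 at 28.8 ± 4.55, whose libraries overlap, followed by Phf10, Dpf1, Smarcd3, Actl6b and Ss18 between 17.8 and 23.2 RPKM, each overlapping with its neighbour in this order. Ss18l1 at 9.55 and Smarca2 at 8.70 RPKM overlapped too, and Dpf3 was last at 2.38. On d17 the order opened with Actl6b at 70.9 ± 2.37 RPKM, Smarcd3 at 47.2 ± 0.53 and Dpf1 at 43.8 ± 1.98, which did not overlap with each other, and Actl6a stood at 14.1 ± 2.16 above Ss18 at 11.5 and Dpf3 at 4.44. In Cav1-null mice Actl6b led on both days, at 59.5 ± 7.41 RPKM on d12 and 72.9 ± 3.56 on d17, while Actl6a was at 37.3 ± 8.26 and 10.7 ± 0.32.

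On d12, AKR/J was below C57BL/6J in 4 of 6 neuronal members, against 14.1% of 19320 genes called lower, with -1.53 ± 0.28 for Actl6b, -1.32 ± 0.32 for Dpf3, -1.02 ± 0.25 for Ss18l1 and -0.90 ± 0.23 for Dpf1. It was below Cav1-null mice in 3 of 6, against 9.93% of 19955 genes, with -1.64 ± 0.19 for Actl6b (adjusted p = 0.00159), -1.10 ± 0.19 for Ss18l1 and -0.87 ± 0.18 for Dpf1, the last called only without replicate 2 of AKR/J or replicate 3 of Cav1-null when 1 library was left out. On d17 the only call among the 3 pairs of strains was Actl6a, higher in AKR/J than in Cav1-null mice by 0.38 ± 0.11 (adjusted p = 0.04999, where 5.73% of 20285 genes were called higher), and with 1 library left out it was called only without replicate 3 of AKR/J, and not in 1 model of all 27 libraries (adjusted p = 0.209), with the replicate block (adjusted p = 0.102) or with library size alone (adjusted p = 0.0729). Actl6a was also higher in AKR/J than in Cav1-null mice on d15, by 0.45 ± 0.09 (adjusted p = 0.00973, where 9.60% of 20172 genes were called higher), with no overlap. Smarca2 was lower in AKR/J than in Cav1-null mice on d15, at 113, 114 and 113 against 139, 149 and 163 CPM, with -0.42 ± 0.08 (adjusted p = 0.0078), a value of -0.64 once the GC and length trend was removed (adjusted p = 0.00443), and was not called in 1 model of all 27 libraries (adjusted p = 0.163). Pairs of strains share libraries on each day. Without replicate 2 of C57BL/6J on d12, edgeR called 0 members between AKR/J and C57BL/6J in place of 5, and 1 or 2 without replicate 1 or 3 of AKR/J or replicate 1 of C57BL/6J. With the GC and length trend removed, Actl6b stayed called on d12 at -1.44, while Dpf3 at -0.91 (adjusted p = 0.0653), Ss18l1 at -0.63 (adjusted p = 0.0793) and Dpf1 at -0.45 (adjusted p = 0.138) did not. On d15, 5 of 6 neuronal members and Smarca4 were lower in AKR/J than in C57BL/6J, where 22.3% of 19692 genes were called lower. With the trend removed, Dpf3 was the only one of these 5 neuronal members still called, at -0.71, and Smarca2, Dpf1 and Smarcd3 were at -0.03, -0.03 and -0.01 and Actl6b at -0.30. Actl6b and Dpf1 were not called with library size alone or in 1 model of all 27 libraries either.

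Between Cav1-null and C57BL/6J mice on d12, edgeR called 0 of 19475 genes (0.00%), and 0 of 10 members with 1 at an unadjusted p under 0.05 and 1 by DESeq2. That member was Smarca4, without overlap at -1.19 ± 0.31 (adjusted p = 0.107), which was called by DESeq2 (adjusted p = 0.0051) and in 1 model of all 27 libraries (adjusted p = 0.0228) and was -0.58 with the GC and length trend removed (adjusted p = 0.57). On d17 it called 0 of 10 members, with 1 at an unadjusted p under 0.05 and 0 by DESeq2, where 0.0491% of 20358 genes were called. Between AKR/J and C57BL/6J on d17 it called 0 of 10, with 2 at an unadjusted p under 0.05 and 0 by DESeq2, where 0.742% of 20207 genes were called. On d15, 7 members were lower in Cav1-null than in C57BL/6J mice, where 31.8% of 19827 genes were called lower, among them Smarca4 with -1.98 ± 0.06, Dpf3 with -1.44 ± 0.10 and Actl6a with -0.35 ± 0.08. Of these 7, Smarca2, Actl6b and Smarcd3 turned to positive values with the GC and length trend removed, and the value of Smarca2 went from -0.35 to 0.57 (adjusted p = 0.000209). Ss18l1 went from -0.39 to -0.05 (adjusted p = 0.584) there. With library size alone, which moved the median of all genes by 0.18, Actl6a was at -0.17, Actl6b at -0.02 and Smarcd3 at -0.003, and none of these was called. In 1 model of all 27 libraries Smarca2, Actl6b, Ss18l1 and Smarcd3 were not called.

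The early change itself differed between AKR/J and Cav1-null mice in 3 members. The difference of the log2 fold changes, AKR/J minus Cav1-null, was 1.34 ± 0.24 for Actl6b (adjusted p = 0.00631), 1.34 ± 0.38 for Dpf3 (adjusted p = 0.0335) and 1.11 ± 0.23 for Ss18l1 (adjusted p = 0.0104), where 7.86% of 21774 genes were called higher. Actl6b stayed called under every alternative and without each of the 12 libraries, Ss18l1 was not called with the GC and length trend removed, at 0.76, and Dpf3 was lost there, at 1.02. With 1 library left out, Dpf3 was called only without replicate 2 or 3 of AKR/J on d12, replicate 2 of AKR/J on d15 or replicate 1 of Cav1-null on d12. Between AKR/J and C57BL/6J the difference for Actl6b was 1.11 ± 0.34 and was not called by edgeR (adjusted p = 0.16, where 0.0711% of 21090 genes were called). It was called by DESeq2 (adjusted p = 0.0451) and in 1 model of all 27 libraries (adjusted p = 0.0131). For Cav1-null and C57BL/6J mice edgeR called 0 of 10 members in the early phase, with 2 at an unadjusted p under 0.05 and 0 by DESeq2, where 0.00472% of 21191 genes were called. In the late phase edgeR called 0 of 10 members in each pair of strains, with 2 to 3 at an unadjusted p under 0.05 and 0 or 1 by DESeq2, where 0.00468% of all genes were called for AKR/J and C57BL/6J, 0.252% for Cav1-null and C57BL/6J, and 2.13% for AKR/J and Cav1-null.

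Smarca4, the BRG1 ATPase, was higher in 7 of the 9 C57BL/6J libraries than in any library of the other strains. It was at 453, 806 and 323 CPM on d12, 702, 755 and 699 on d15, and 480, 150 and 226 on d17 in that strain. AKR/J held 174, 218 and 163 CPM on d12, 214, 187 and 315 on d15, and 176, 150 and 140 on d17. Cav1-null mice held 252, 241 and 180 CPM on d12, 181, 178 and 172 on d15, and 156, 160 and 162 on d17. The difference on d15 was -1.53 ± 0.17 for AKR/J against C57BL/6J (adjusted p = 0.000557) and -1.98 ± 0.06 for Cav1-null against C57BL/6J (adjusted p = 1.21e-08). Over the days, the widest change of Smarca4 was from d15 to d17 in C57BL/6J, without overlap, with -1.26 ± 0.40 (adjusted p = 0.075). It was not called by edgeR but was called by DESeq2 (adjusted p = 0.00698), in 1 model of all 27 libraries (adjusted p = 0.0044), with the replicate block (adjusted p = 0.0466) and with the GC and length trend removed, at -0.90 (adjusted p = 0.036), and it was -1.88 without replicate 1 of d17. Smarca4 was called lower in Cav1-null mice from d12 to d17, with -0.50 ± 0.12 (adjusted p = 0.00805), and in AKR/J from d15 to d17, with -0.61 ± 0.18 (adjusted p = 0.042). With 1 library left out, the first was called only without replicate 2 or 3 of d12 and the second only without replicate 2 of d15 or replicate 1 of d17, with a value of -0.37 without replicate 3 of d15. Neither was called in 1 model of all 27 libraries (adjusted p = 0.24 and 0.219), nor the second with the GC and length trend removed, at -0.46, or with the replicate block (adjusted p = 0.0575).

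The level of Smarca4 moved with a property of the libraries. For each gene that passed the filter on low counts, log2 expression in each library was taken relative to its mean over the 27 libraries. These deviations were set against GC content and length, so that slopes are relative to the average of the series. The GC slope was above 0.2 on the log2 scale per 10 percentage points of GC in 7 libraries, all of C57BL/6J, with 0.21 to 0.48. Smarca4 was at 323 to 806 CPM in these 7 and at 140 to 315 CPM in the other 20, whose slopes were -0.32 to 0.08 and which include replicates 2 and 3 of C57BL/6J on d17. With the trend removed, a correction chosen after seeing the data, the difference on d12 between AKR/J and C57BL/6J went from -1.36 ± 0.34 to -0.41 (adjusted p = 0.239). On d15 the differences went to -0.82 for AKR/J and -1.02 for Cav1-null mice, both still called (adjusted p = 0.0139 and 7.32e-07). The net change in AKR/J went from -0.26 (adjusted p = 0.281) to -0.68 (adjusted p = 0.00352). Dpf3 was at 19.4 to 45.9 CPM in the 7 libraries and at 6.23 to 26.2 CPM in the other 20, with some overlap. Actl6a showed no such split, with 23.99 to 91.9 CPM in the 7 libraries and 19.4 to 92.4 in the other 20.

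**Figure D4:**
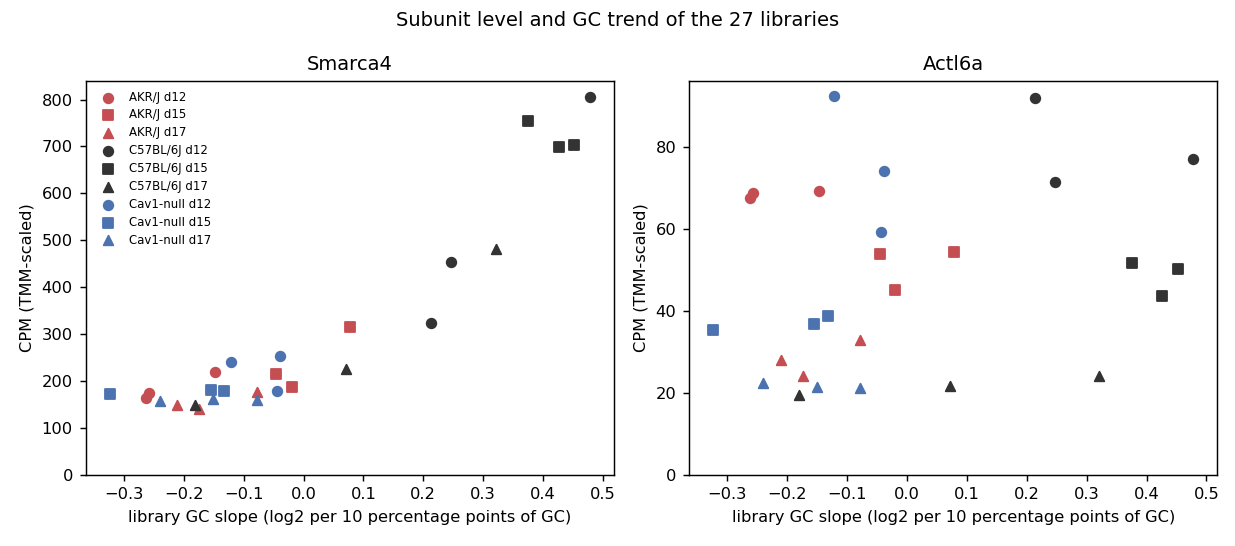
CPM of Smarca4 and Actl6a (vertical axes from 0) against the GC slope of each of the 27 libraries, coloured by strain with the day as the symbol. The 7 C57BL/6J libraries with slopes of 0.21 to 0.48 hold 323 to 806 CPM of Smarca4, above the 140 to 315 CPM of the other 20, whereas Actl6a orders by day at any slope.

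Other properties of the libraries also moved with these results, and their part in them was not tested. Libraries held 26363697 to 39759702 reads on genes. The AKR/J libraries of d12, which hold the lowest Actl6b and Ss18l1, had a summed level of the 10 erythroid markers of 33230 to 198000 CPM, against 570 to 18630 CPM in all other groups. They had 56.3 to 2209 CPM for the 7 placenta and yolk sac markers other than Ttr, which choroid plexus also makes, with 7 of 7 above 1 CPM. The other 8 groups had 0.28 to 64.3 CPM with 0 to 5 of 7 above 1 CPM, and Prl8a2, Tpbpa, Prl3b1 or Prl2c2 at 0 reads in 5 of them. The summed level of the 8 neuron markers was 1795 to 2378 CPM in AKR/J on d12, 3456 to 5840 in C57BL/6J and 4504 to 5622 in Cav1-null mice, and 5655 to 7609 on d17 over all strains. That of the 6 proliferation markers was 836 to 1880 CPM on d12 and 221 to 399 on d17, and that of the 8 progenitor markers 1485 to 4241 and 1047 to 1746. That of the 8 endothelium and microglia markers was 121 to 255 CPM in C57BL/6J on d12, 198 to 270 on d15 and 77.7 to 242 on d17, and 63.3 to 124 CPM in the other strains over all days. The 8 muscle markers summed to 6.06 to 113 CPM. That of the 8 glia markers was 63.1 to 213 CPM on d12 and 214 to 576 on d17.

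Of 21 other BAF, PBAF and non-canonical BAF subunits, 5 rose and 3 fell from d12 to d17 in AKR/J, with a median log2 fold change of -0.12, where 23.1% and 22.7% of all genes did. In C57BL/6J 7 fell and none was called higher, with a median of -0.61, where 11.7% of all genes were called lower and 14.5% higher. In Cav1-null mice 1 rose and 13 fell, with a median of -0.44, where 20.8% and 23.3% of all genes did. The largest rise in AKR/J and in Cav1-null mice was that of Bicral, a subunit of the non-canonical complex, from 24.1 to 61.6 CPM (1.35 ± 0.14, adjusted p = 0.000193) and from 38.6 to 69.5 CPM (0.83 ± 0.09, adjusted p = 0.000189). The largest falls were those of Arid1a, the DNA-binding subunit of canonical BAF, in AKR/J (-0.89 ± 0.21), of the scaffold subunit Smarcc1 in C57BL/6J (-1.09 ± 0.32) and of the HMG-box subunit Smarce1 in Cav1-null mice (-1.18 ± 0.10).

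Of 8 regulators of the exchange, 5, 4 and 8 fell from d12 to d17 in AKR/J, C57BL/6J and the Cav1-null line. There 22.7%, 11.7% and 23.3% of all genes were called lower. The medians of the 8 were -1.01, -0.996 and -0.945. None was called higher, where 23.1%, 14.5% and 20.8% of all genes were. The 8 are Rest, Rcor1, Rcor2, Ptbp1, Ptbp2 and the microRNA host transcripts Mir124a-1hg, Mir124-2hg and Mir9-3hg. The counts thus pool the repressor Rest with hosts of the microRNAs that it holds down. The largest fall in every strain was that of the REST corepressor Rcor2, from 140 to 59.96 CPM in AKR/J (-1.22 ± 0.29), from 232 to 62.6 in C57BL/6J (-1.85 ± 0.21) and from 128 to 43.9 in Cav1-null mice (-1.55 ± 0.18). Rest and the miR-9 host transcript Mir9-3hg, given for their roles after their values were seen, were also called lower in each strain. Rest went from 50.4 to 25.3 CPM in AKR/J, from 48.2 to 22.0 in C57BL/6J and from 41.1 to 19.2 in Cav1-null mice. Mir9-3hg went from 152 to 66.0, from 159 to 50.1 and from 121 to 54.1 CPM, a host transcript whose level does not give that of the mature microRNA. The miR-124 host Mir124a-1hg went up from 283 to 373 CPM in AKR/J. It went down from 388 to 265 in C57BL/6J and from 357 to 283 in Cav1-null mice. Mir124-2hg went from 606 to 279, from 329 to 176 and from 370 to 219 CPM, in the same order of strains.

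Junction reads gave a view of transcript choice in the members. The junction table holds 71 junctions in 9 of the 10 members, and none for Ss18l1. Pairs of junctions that share 1 end were compared by the share of reads on each, for pairs with at least 10 reads in every library. Of 18 such pairs in 5 members, 4 pairs in 3 members had no overlap between d12 and d17 in the same direction in all 3 strains, against 5.96% of 5588 pairs over all genes. Such shares carry counting error from few reads and were not tested.

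In Ss18 both of its pairs are the ends of the same 93-base exon, which 16 of the 50 GENCODE transcripts hold. On the downstream side, the share of reads that join the exon, and do not skip it, was 1.75% to 23.1% on d12 and 35.7% to 40.0% on d17 in AKR/J, 13.3% to 18.0% and 30% to 48.3% in C57BL/6J, and 14.1% to 26.8% and 28.6% to 47.6% in Cav1-null mice, from 25 to 128 reads per library. On the upstream side it was 0% to 5.09% and 33.3% to 40.0%, 12.0% to 14.3% and 18.6% to 54.6%, and 14.1% to 20.2% and 23.1% to 30.4%, in the same order, from 20 to 120 reads. The gene thus lost reads while the share of transcripts with this exon went up.

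In Dpf1 the pair joins exon 2 to either the canonical first exon (chr7:29003538-29008835) or a first exon farther downstream (chr7:29007524-29008835, GRCm39). The downstream first exon took 18.3% to 22.6% of 60 to 102 reads on d12 and 26.3% to 31.3% of 152 to 179 reads on d17 in AKR/J. It took 24.5% to 33.1% and 34.0% to 41.2% in C57BL/6J, and 25.5% to 27.6% and 32.3% to 32.6% in Cav1-null mice. In each strain the mean was highest on d15, at 33.8%, 41.1% and 36.9%.

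In Smarca2 the junction between exons 27 and 28 of the canonical transcript (chr19:26698348-26729223) shares its end with one that leaves an internal first exon of 48 bases (chr19:26725699-26729223), which 1 GENCODE transcript holds. The internal first exon took 30.8% to 64.3% of only 13 to 28 reads on d12 in AKR/J and 2.15% to 6.33% of 69 to 93 reads on d17. It took 3.37% to 13.2% and 0% to 2.63% in C57BL/6J, and 4.88% to 17.2% and 1.54% to 3.64% in Cav1-null mice. Another junction within this intron (chr19:26727348-26729223) shares the same end and kept a larger share. Paired with it, the canonical junction held on average 20.2% on d12 and 49.8% on d17 in AKR/J. The means were 52.2% and 60.2% in C57BL/6J, and 54.4% and 78.6% in Cav1-null mice. That pair did not meet the rule of no overlap in all strains.

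**Figure D5:**
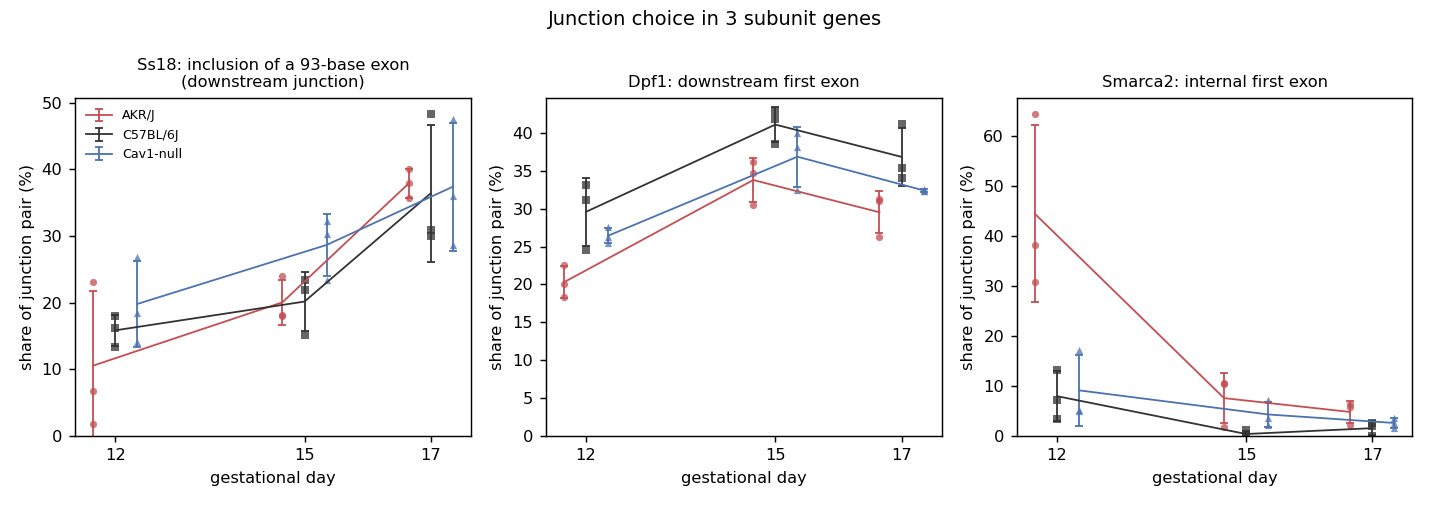
Share of junction reads, in percent of the pair (vertical axes from 0), against gestational day for inclusion of the 93-base exon of Ss18 (downstream junction), the downstream first exon of Dpf1 and the internal first exon of Smarca2, with libraries as points and mean ± SD of 3 libraries as lines. The Ss18 share on d17 is 28.6% to 48.3% over the strains, above every d12 library, and the Smarca2 share of AKR/J drops from 30.8% to 64.3% on d12 to 2.15% to 6.33% on d17.

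The genes most like each member over the 27 libraries were named by the root mean square difference of log2 expression centred on the gene, among 11444 other genes with an average of at least 3 on the log2 CPM scale. Actl6a was nearest to Gpsm2 (0.14), Tmpo (0.15) and the cyclin-dependent kinase Cdk4 (0.16), and Actl6b to Atcay (0.11), Aldh1l2 (0.13) and Abr (0.15). Ss18 was nearest to Gxylt1, Sp1 and Psme4, Ss18l1 to Chst10, Exoc6b and Septin3, Phf10 to Cers2, Rbbp6 and Nob1, and Dpf1 to Cacnb3, Rnf130 and Rnf41. Smarca2 was nearest to Ppp3ca, Kcnk2 and Rps6ka5, Smarcd3 to Fchsd2, Meaf6 and Parp6, and Dpf3, with wider differences of 0.22 to 0.23, to Panx1, Mgat5 and Urgcp. Smarca4 was nearest to Prpf8, a core component of the spliceosome, at 0.09, then to Zmiz1 and Glg1 at 0.17. The libraries share strain, day and GC slope, so that a small difference is a description of these libraries.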

How the data were processed

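Poly-A RNA of 27 fetal brain samples was sequenced, and the authors' processing notes name fastp, cutadapt, FastQC, STAR, bedtools and edgeR with build GRCm39. The deposited gene table holds counts of reads per gene, not normalized, and a second deposited table holds counts of reads on exon junctions, without junctions of low support. Whether counting used strand is not given in the sources used here, so overlapping and antisense genes may share reads. Columns of the authors' own comparisons were not used. Groups came from the labels, and each library was treated as a separate fetus, which the labels do not state. The members and gene lists were chosen with earlier results of these data known.

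Each comparison of 2 groups used its 6 libraries, edgeR 4.0.16 (R 4.3.3) with filterByExpr, TMM factors, the quasi-likelihood F test and Benjamini-Hochberg adjustment over all genes tested, and errors of fold changes are SE. Differences between strains in a change used an interaction term over 12 libraries. Depth was 26363697 to 39759702 reads per library. CPM and RPKM were computed here from TMM-scaled counts and GENCODE canonical transcript lengths, and junction shares from pairs with at least 10 reads in every library. Beside the 10 members, the text names the largest called rise and fall of each list, the 3 nearest genes of each member and, for each member with junction pairs that did not overlap between d12 and d17 in the same direction in all strains, the one of these with the widest shift. Alternatives were DESeq2 1.42.0, RLE factors, library size alone, no filter, 1 model of all libraries, a replicate block, junction reads for the ratios and each library left out. Removal of a GC and length trend (splines) was added after seeing the data. The main edgeR fit was tested on simulated data for AKR/J d12 to d15, Cav1-null against C57BL/6J on d15 and the early interaction of AKR/J and Cav1-null. The other comparisons and the alternatives were not tested in this way.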

Additional observations from a re-analysis of the deposited data

Results flagged for a closer look

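3 neuronal subunits were singled out because their early change differed between strains by the interaction test of edgeR over 12 libraries, 3 a group. From d12 to d15 the log2 change of AKR/J exceeded that of Cav1-null mice by 1.34 in Actl6b (adjusted p = 0.00631), by 1.34 in Dpf3 (adjusted p = 0.0335) and by 1.11 in Ss18l1 (adjusted p = 0.0104). In all 3 genes every AKR/J library of d15 lay above every AKR/J library of d12.

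Smarcd3 was singled out because its level went up from d15 to d17 in AKR/J and Cav1-null mice and down in C57BL/6J. In each strain the libraries of d15 and d17 did not overlap. The late change was 0.38 in AKR/J and -0.04 in C57BL/6J, a difference of 0.42 on the log2 CPM scale, and the interaction test gave 0.45 (adjusted p = 0.516). The direction in C57BL/6J flipped, to 0.16 with the GC and length trend removed and to 0.098 with library size alone, which moved the median of all genes by 0.14, and neither was called. Between C57BL/6J and Cav1-null mice, with a late change of 0.17, the difference was -0.20, and the interaction test gave an adjusted p of 0.422 with edgeR.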

How the results depend on the processing

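Of 240 member results, 69 were called, and DESeq2 and RLE factors each kept 68, no filter on low counts 66, library size alone 59, the replicate block 59, 1 model of all 27 libraries 55, and removal of the GC and length trend (chosen after seeing the data) 46, with 3 reversed. With the trend removed, Cav1-null against C57BL/6J on d15 gave 0.57 for Smarca2, 0.0161 for Actl6b and 0.33 for Smarcd3, and, not called before, 0.18 for Phf10 and 0.29 for Dpf1, and the number of members called was 4 for C57BL/6J d12 to d15, 3 for Cav1-null d12 to d15, 1 and 3 for AKR/J against C57BL/6J on d12 and d15, 2 for AKR/J against Cav1-null on d17 and 1 for the early interaction of these strains. In 1 model of all libraries, the number was 2 for AKR/J d15 to d17, 7 and 5 for C57BL/6J d12 to d15 and d12 to d17, 1 and 3 for Cav1-null against C57BL/6J on d12 and d15, 6, 1 and 0 for AKR/J against Cav1-null on d12, d15 and d17, and 1 for the early interaction of AKR/J and C57BL/6J. DESeq2 gave 5 for C57BL/6J d12 to d15, 1 for Cav1-null against C57BL/6J on d12, 4 for AKR/J against Cav1-null on d15, and 1 each for the early interaction of AKR/J and the late one of Cav1-null against C57BL/6J. Without a filter the number was 1 for Cav1-null against C57BL/6J on d12, 5 for AKR/J against Cav1-null on d12 and 2 for the late interaction of Cav1-null and C57BL/6J. Library size alone gave 4 for Cav1-null against C57BL/6J on d15, 0 for AKR/J against Cav1-null on d17 and 5 for their early interaction, and it moved the median of all genes by 0.44 for AKR/J d12 to d15. The cause of these shifts was not tested.

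Replicate numbers did not pair the samples, since correlations of same-numbered deviations were -0.25 to 0.19 over 54 pairs and in 0 of 18 comparisons was every pair over 0.1. The replicate block gave 0 members for C57BL/6J d12 to d15 and 0 for AKR/J against Cav1-null on d17. With junction reads, the log2 ratio of Dpf1/Phf10 changed from d12 to d17 by 1.67 in AKR/J, where gene reads gave 1.15. That of Smarca2/Smarca4 changed by 1.95 in AKR/J and 1.42 in Cav1-null mice, where gene reads gave 1.41 and 1.14. Only 1 junction of Smarca4 had reads in every library. The values of other pairs and strains are not listed here. No such value could be had for Actl6b/Actl6a and Ss18l1/Ss18.

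With each library left out, the number of members called was 2 to 7, 2 to 5 and 7 to 8 in AKR/J (d12 to d15, d15 to d17, d12 to d17), 0 to 6, 0 to 5 and 2 to 3 in C57BL/6J, and 3 to 6, 2 to 3 and 4 to 6 in Cav1-null mice. On d12, d15 and d17 it was 0 to 6, 4 to 7 and 0 to 2 for AKR/J against C57BL/6J, 0 to 1, 5 to 7 and 0 to 1 for Cav1-null against C57BL/6J, and 2 to 5, 2 to 3 and 0 to 1 for AKR/J against Cav1-null. For the early and late interactions it was 0 to 1 and 0 to 3, 0 to 2 and 0 to 4, and 2 to 6 and 0 to 0, in the same order of pairs. The lowest or highest of these counts came without AKR/J d17 replicate 2 for d15 to d17, and without C57BL/6J d17 replicate 3 (0) or replicate 1 (5) for d15 to d17. With 3 libraries a group, counts of calls move with single libraries.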
